A study of Mus musculus with 6 samples.

Results

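This account covers 48 genes of mitosis and the spindle in subcutaneous mouse tumours of Hep1-6, an established hepatoma line. They are the rows of the deposited expression table whose symbol is on a fixed list of cyclins, mitotic kinases, kinetochore proteins, kinesins and cytokinesis proteins, 48 of 34745 genes in all. The tumours of the high cholesterol diet (HCD) group, 3 libraries, grew under the skin of C57BL/6J mice fed that diet, and those of the normal diet (ND) group, 3 libraries, under the skin of C57BL/6J mice fed a normal diet. The cells were grown in DMEM with serum before injection, and diet is the only factor in the labels. No age is given, and nothing says that the tumours of a group came from separate animals. The p-values therefore cover only the spread between these 6 samples, which may be technical. The tumours lay outside the liver, in hosts with their own immune cells, and each library is bulk RNA of tumour and host cells together.

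Entry into mitosis is driven by the kinase Cdk1 bound to cyclin B, after which Aurora and Polo kinases, kinesins and the kinetochore build a spindle that holds every chromosome. A spindle checkpoint restrains the anaphase-promoting complex (APC/C) until all chromosomes are attached, and its release leads to the destruction of cyclin B and securin. Most of the genes are transcribed late in the cell cycle under the DREAM, B-Myb and FoxM1 regulators, so their summed RNA is widely read as a measure of how many cells divide. In bulk tumour RNA, fewer dividing cells and less of these RNAs per dividing cell cannot be told apart, nor can dividing tumour cells and dividing host cells.

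Library sizes implied by the steps of the values were 20351637, 20425392 and 20918260 fragments in HCD 1 to HCD 3 and 22864690, 26228158 and 20622880 fragments in ND 1 to ND 3. Values are FPKM, fragments scaled by gene length and by library size, which can be compared between genes of 1 library. All 48 genes passed the filter of a mean of 0.5 FPKM, and 13417 genes of the table did. With GENCODE exon lengths, a member rested on about 252 to 21166 fragments in a library, and 22 members had under 1000 in at least 1 library. Of the hepatocyte markers, Alb averaged 1407 FPKM and Afp, a marker of fetal liver and hepatoma, 148 FPKM, while Apoa2, Ahsg and Serpina1a were below the filter. Skeletal muscle markers summed to between 46.8 and 940 FPKM in HCD libraries and between 34.5 and 784 FPKM in ND libraries, highest in HCD 1 and ND 2.

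Mitosis and spindle genes were a little higher on average in the HCD libraries, and no single gene passed the test. The members rose and fell together between libraries, so a count of members is not a count of independent observations of diet. The mean log2 level was higher in HCD for 45 of 48 genes (45 and 44 with median-ratio and upper-quartile scaling), against 55.7% of all tested genes, and the median log2 difference was 0.11, against 0.02 over all tested genes. Limma, a linear model fitted to log2(FPKM + 1) over all tested genes, called 0 members at a Benjamini-Hochberg adjusted p of 0.05, and the share called over the table was 0%. Differences are given as HCD minus ND on that log2 scale. Adjusted p-values of the members lay between 0.794 and 0.981. At an unadjusted p under 0.05 there were 2 members, Aurka and Prc1, or 4.17%, against 5.88% of all tested genes in either direction and 2.56% higher in HCD. The same 2 were the only members whose HCD and ND values did not overlap, against 12.1% of all tested genes in either direction and 5.98% higher in HCD. The share without overlap was below that of the table. Without ND 3, 32 of 48 members had the higher mean in HCD, against 55.3% of all tested genes, and the median difference was 0.04. Without HCD 2, 46 of 48 had the higher mean in HCD, against 54.1% of all tested genes, with a median of 0.15.

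The intervals cover only the spread between these 6 samples. For 47 of 48 members the 95% interval stayed within 1.5-fold of no change in either direction, against 81.2% of all tested genes, and within 2-fold for all 48, against 93.4%. Spc24 was the member whose interval passed 1.5-fold, reaching 0.68 on the log2 scale. The median half-width was 0.23 for the members and 0.233 for all tested genes. The median within-group SD on the log2 scale was 0.127 for the members and 0.118 for all tested genes. It was 0.103 for the 7490 tested genes at or above the lowest member mean.

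**Figure D1:**
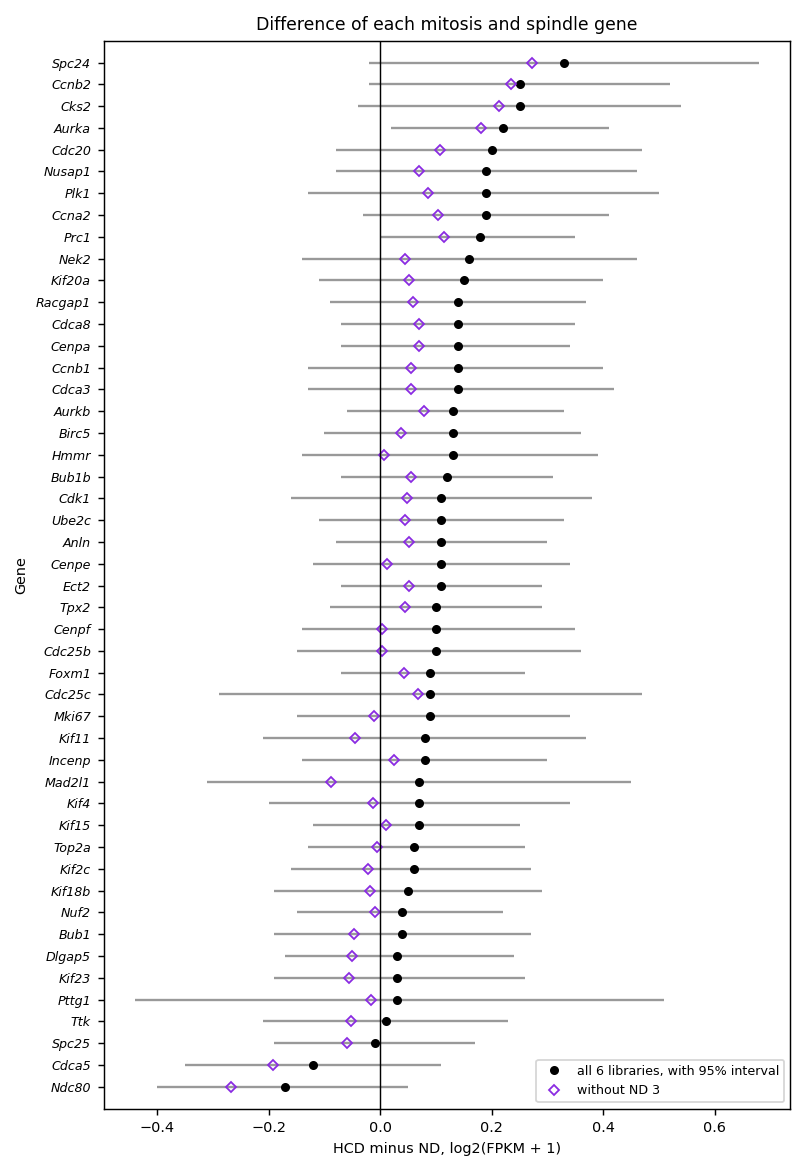
Difference of each of the 48 genes, HCD minus ND, in units of log2(FPKM + 1). Filled points with lines are the estimates and 95% intervals of the limma fit over all 6 libraries, and open diamonds are the estimates without ND 3. Most filled points lie right of 0 with a median of 0.11, and every diamond lies left of its filled point, with a median of 0.04.

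The members moved together from library to library, and ND 3 stood lowest. ND 3 held the lowest of the 6 values for 43 of 48 members, where 12.8% of all tested genes had their lowest value there. HCD 2 was lowest for Cdc25c, Ndc80, Pttg1 and Cdca5, and ND 2 was lowest for Ccnb2. Within the ND group, ND 3 was the lowest library for 46 of 48 members, against 28% of all tested genes, and it lay below the mean of ND 1 and ND 2 for all 48, with a median log2 gap of -0.22 (range -0.47 to -0.04). Within the HCD group, HCD 2 was the lowest library for 39 of 48 members, against 36.6% of all tested genes, with a median log2 gap to the mean of HCD 1 and HCD 3 of -0.15. HCD 1 held the highest of the 6 values for 26 members, against 20.9% of all tested genes.

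Summed over the 48 genes, the level was 1005, 873 and 957 FPKM in HCD 1 to HCD 3 and 913, 926 and 777 FPKM in ND 1 to ND 3. The groups overlapped, since HCD 2 lay below ND 1 and ND 2. The median deviation of the 48 genes from their 6-library means was 0.117, -0.052 and 0.090 in HCD 1 to HCD 3 and 0.015, 0.027 and -0.192 in ND 1 to ND 3 on the log2 scale. Over all tested genes the same median lay between -0.021 and 0.022, and FPKM values are already scaled by library size. Centring each library on the median of the 48 genes lowered the within-group SD of 45 members, and the median SD to 0.0618, against 0.127 before. That median comes from the same 48 genes, so a drop of their SD is partly built in, and no other list was set beside it. Centring was chosen after the values were seen.

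**Figure D2:**
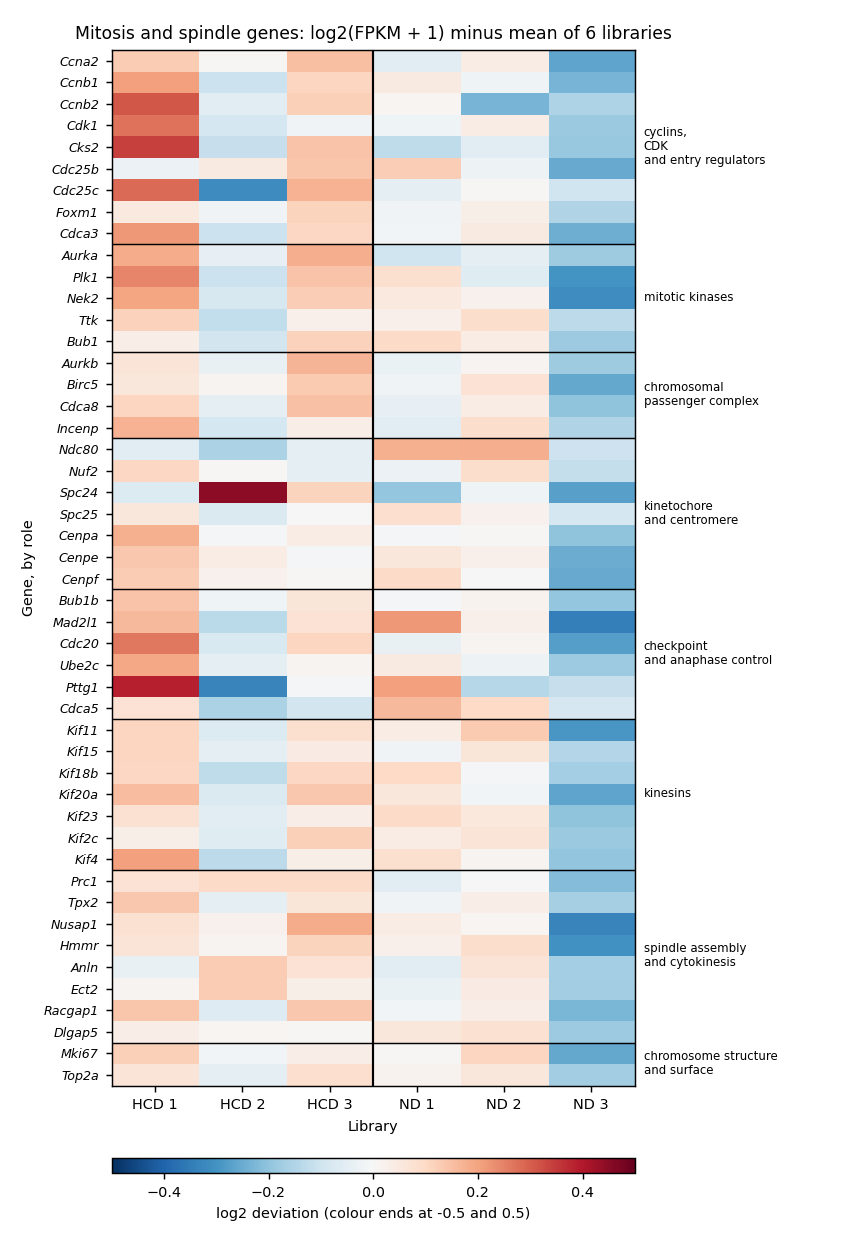
Deviation of each gene from its mean over the 6 libraries, log2(FPKM + 1), for the 48 genes in order of role, with HCD libraries left of ND libraries. Blue is below and red above the gene's mean. The ND 3 column is blue throughout and is the lowest for 43 genes, while HCD 1 is the highest for 26 genes; Spc24 in HCD 2 and Pttg1 in HCD 1 are the darkest red cells.

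Markers of other cell types varied between these libraries too. Neutrophil markers summed to 45.5 to 48.5 FPKM in HCD libraries and to 49.1 to 112 FPKM in ND libraries, with 110 FPKM in ND 3 and 112 FPKM in ND 1, and 6 of 7 were tested, Ly6g being below the filter. Macrophage markers summed to 425 to 1019 FPKM in HCD libraries, highest in HCD 2, and to 259 to 616 FPKM in ND libraries, with all 9 tested. Hepatocyte markers summed to 1604 to 2252 FPKM in HCD libraries, lowest in HCD 2, with 9 of 12 tested. In ND libraries they summed to 1775 to 2126 FPKM, with ND 3 lowest and ND 2 near it at 1799 FPKM. Alb, Rbp4 and Afp carry these sums, at means of 1407, 257 and 148 FPKM. Of the 9 tested markers 4 were lowest in HCD 2 and 3 in ND 3. Among them Fgb and Trf were highest in ND 3, at 34.7 and 0.90 FPKM, and Rbp4 was highest of the ND libraries there. T cell markers summed to 40.6 to 92.1 FPKM in HCD libraries and 14.9 to 55.4 FPKM in ND libraries, with all 12 tested. Endothelial markers, all 8 tested, summed to 62.9 to 112 FPKM in HCD libraries and 51.6 to 65.6 FPKM in ND libraries, and fibroblast markers, all 8 tested, to 850 to 1052 FPKM in HCD libraries and 940 to 1141 FPKM in ND libraries. Dcn, at a mean of 803 FPKM, carries the fibroblast sum, and 7 of the 8 fibroblast markers were highest in HCD 2, among them Col1a1 at 93.2 FPKM. None of these lists had a gene at 0 in every library. Their part in the level of the mitosis genes was not tested. Without the muscle-rich libraries HCD 1 and ND 2 the median difference of the 48 genes was 0.11, while single members moved, with Ccnb2 at 0.10, Ube2c at 0.05 and Spc24 at 0.51.

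**Figure D3:**
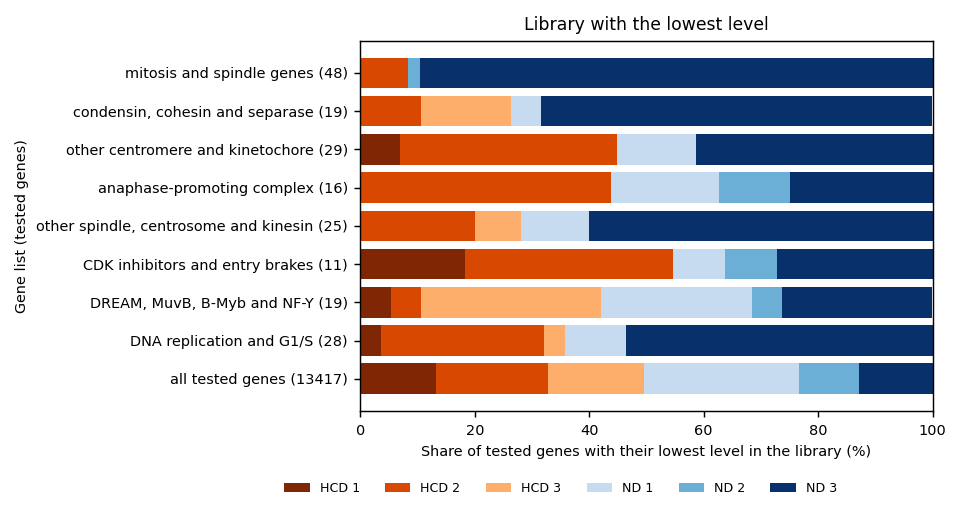
Share of the tested genes of each list that had their lowest level in each library, in percent, with HCD libraries in browns and oranges and ND libraries in blues. ND 3 takes 89.6% of the mitosis and spindle genes, 53.6% of the replication genes and 12.8% of all tested genes.

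Many of the genes hold promoter elements of late cell cycle genes, and the related lists hold them to differing degrees. RefSeq promoter windows of 300 bases, 250 before and 50 after a start site, were on hand for 39 of the 48 genes, in 41 windows; Kif20a, Tpx2, Ccna2, Cdc25c, Spc24, Aurkb, Foxm1, Dlgap5 and Incenp were not matched. The letters TTTGAA, the core of the cell cycle genes homology region bound by MuvB complexes, were present on either strand in 30 of 41 windows, or 73.2%, against 17.9% of all 32851 promoter windows. CCAAT, the box of the factor NF-Y, was present in 31 windows, or 75.6%, against 37.4%. The related lists also held these letters, with CCAAT in 70.8% of replication and G1/S windows, 69% of other centromere and kinetochore windows and 61.1% of condensin and cohesin windows. TTTGAA was in 48.1% of other spindle and centrosome windows, 38.9% of condensin and cohesin windows and 16.7% of replication and G1/S windows. It was in 27.6% of other centromere and kinetochore windows. In windows of the APC/C, of CDK inhibitors and brakes, and of DREAM and NF-Y genes, TTTGAA was in 15.8%, 8.33% and 28.6%. CCAAT was in 42.1%, 50% and 42.9% of those. Both were present in 25 windows, or 61%, against 33.3% of other spindle and centrosome windows, 27.8% of condensin and cohesin windows and 6.95% of all. These shares were not tested against each other. TTTAAA, searched to see how common an AT-rich 6-mer is, was present in 22% of member windows, against 13.2%. Of 39 TTTGAA matches, 30 began within 50 bases of the start site. Matches are letters, not measured binding.

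The windows of 6 genes that hold both elements are shown because these genes are standard markers of dividing cells, and that of Ndc80, chosen after its values were seen, because its level ran differently. Sequences are from RefSeq, build GRCm38.p6, written 5′ to 3′ in the gene's direction. Capitals mark TTTGAA and CCAAT, with their reverse complements TTCAAA and ATTGG.
Mki67 (chr7:135716330-135716629, minus strand): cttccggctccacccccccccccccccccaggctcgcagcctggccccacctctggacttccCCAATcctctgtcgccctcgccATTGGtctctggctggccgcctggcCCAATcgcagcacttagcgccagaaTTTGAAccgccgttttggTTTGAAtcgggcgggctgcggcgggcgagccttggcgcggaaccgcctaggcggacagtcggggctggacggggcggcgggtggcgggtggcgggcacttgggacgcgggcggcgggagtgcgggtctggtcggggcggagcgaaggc
Top2a (chr11:99024140-99024439, minus strand): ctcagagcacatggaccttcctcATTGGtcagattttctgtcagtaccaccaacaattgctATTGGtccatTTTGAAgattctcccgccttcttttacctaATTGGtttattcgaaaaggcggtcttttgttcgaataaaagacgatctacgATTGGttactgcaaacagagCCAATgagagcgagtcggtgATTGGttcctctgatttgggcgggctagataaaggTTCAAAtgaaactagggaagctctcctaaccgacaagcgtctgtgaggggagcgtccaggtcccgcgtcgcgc
Cdk1 (chr10:69352863-69353162, minus strand): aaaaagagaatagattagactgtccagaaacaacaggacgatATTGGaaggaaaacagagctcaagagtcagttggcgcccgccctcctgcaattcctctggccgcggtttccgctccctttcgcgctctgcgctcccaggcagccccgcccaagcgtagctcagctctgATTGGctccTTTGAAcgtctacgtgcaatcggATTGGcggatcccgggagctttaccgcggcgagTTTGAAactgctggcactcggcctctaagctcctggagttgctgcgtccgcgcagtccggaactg
Ccnb2 (chr9:70421505-70421804, minus strand): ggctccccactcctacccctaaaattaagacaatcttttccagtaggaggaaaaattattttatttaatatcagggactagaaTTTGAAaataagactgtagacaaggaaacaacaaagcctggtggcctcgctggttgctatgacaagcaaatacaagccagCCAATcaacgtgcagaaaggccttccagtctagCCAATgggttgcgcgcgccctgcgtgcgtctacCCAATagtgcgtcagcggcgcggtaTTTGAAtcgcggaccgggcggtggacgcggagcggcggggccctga
Plk1 (chr7:122159185-122159484, plus strand): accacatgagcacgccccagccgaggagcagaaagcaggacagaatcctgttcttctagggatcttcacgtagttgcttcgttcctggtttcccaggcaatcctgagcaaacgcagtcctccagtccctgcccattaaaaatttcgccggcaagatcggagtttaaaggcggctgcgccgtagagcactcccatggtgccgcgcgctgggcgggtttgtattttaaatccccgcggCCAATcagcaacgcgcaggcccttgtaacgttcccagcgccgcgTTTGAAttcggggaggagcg
Aurka (chr2:172370521-172370820, minus strand): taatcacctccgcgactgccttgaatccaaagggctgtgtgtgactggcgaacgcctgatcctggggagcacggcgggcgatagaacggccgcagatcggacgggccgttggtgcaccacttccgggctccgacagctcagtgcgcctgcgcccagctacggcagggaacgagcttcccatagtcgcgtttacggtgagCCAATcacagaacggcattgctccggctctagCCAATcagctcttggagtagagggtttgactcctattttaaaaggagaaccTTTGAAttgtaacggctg
Ndc80 (chr17:71526808-71527107, minus strand): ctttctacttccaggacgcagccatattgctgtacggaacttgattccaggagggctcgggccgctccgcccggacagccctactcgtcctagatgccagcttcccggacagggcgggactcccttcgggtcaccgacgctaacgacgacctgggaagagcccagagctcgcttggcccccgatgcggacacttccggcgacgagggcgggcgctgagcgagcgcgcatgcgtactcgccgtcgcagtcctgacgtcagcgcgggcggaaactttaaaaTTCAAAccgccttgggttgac
Positions count from the start site to a match's first base. Plk1 has its TTTGAA at position 31 and CCAAT at -14, and Aurka has its TTTGAA at 33 and CCAAT at -51 and -19. Ccnb2 has TTTGAA at -167 and 5 and CCAAT at -87, -54 and -21. Ndc80 holds 1 TTTGAA, on the reverse strand at position 30, and no CCAAT in this window. CCAAT was present in 31 of 41 member windows, so Ndc80 is not alone in lacking it. A link to its level was not tested.

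Mki67 and Top2a, the usual markers of cycling cells, had the highest levels of the set. Mki67, which encodes the Ki-67 protein that coats mitotic chromosomes, was at 80.8, 73.7 and 76.0 FPKM in HCD 1 to HCD 3, against 74.7, 80.2 and 62.1 FPKM in ND 1 to ND 3. ND 2 was nearly as high as HCD 1, and ND 3 alone lay below all HCD libraries. The log2 difference of Mki67 was 0.09 (95% interval -0.15 to 0.34, limma adjusted p = 0.848), and -0.01 without ND 3. Top2a, the topoisomerase that untangles sister chromatids, was at 68.9, 63.6 and 69.9 FPKM in HCD libraries and 66.8, 68.6 and 58.35 FPKM in ND libraries. ND 3 was again the lowest library, and its log2 difference was 0.06 (SE 0.078).

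All 9 regulators of mitotic entry had the higher mean in HCD, and none passed the test. Cdk1, the kinase of mitotic entry, was at 28.7, 22.1 and 23.3 FPKM in HCD 1 to HCD 3, against 23.2, 24.2 and 20.6 FPKM in ND 1 to ND 3. HCD 1 stood apart, and the other HCD libraries lay among the ND libraries. Ccnb1, cyclin B1, was at 17.4, 13.8 and 16.2 FPKM in HCD and 15.45, 14.7 and 12.6 FPKM in ND. Its level is uncertain, since 3 processed pseudogenes carry stretches of 1287 to 1294 bases that are nearly identical to it. Ccnb2, cyclin B2, was at 29.7, 22.8 and 25.8 FPKM in HCD and 23.9, 20.1 and 21.2 FPKM in ND, with a log2 difference of 0.25 (95% interval -0.02 to 0.52, limma adjusted p = 0.794). The ratio of Ccnb2 to Cdk1 was 1.034, 1.033 and 1.111 in HCD 1 to HCD 3 and 1.032, 0.828 and 1.031 in ND 1 to ND 3, without overlap but with HCD 1, HCD 2, ND 1 and ND 3 nearly equal. The groups of Ccnb2 overlapped only through HCD 2, which lay below ND 1. The Ccnb2 difference was 0.24 without ND 3 and ranged from 0.16 to 0.34 over the libraries left out in turn, and it was 0.10 without ND 2 and HCD 1 together.

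Cks2, a small subunit that docks Cdk1 on its substrates, was the most abundant of the entry regulators. It was at 70.6, 51.1 and 61.2 FPKM in HCD 1 to HCD 3, against 50.6, 53.4 and 48.4 FPKM in ND 1 to ND 3, with a log2 difference of 0.25 (SE 0.119). HCD 1 and HCD 3 lay above all ND libraries and HCD 2 did not. Reads of Cks2 may be shared with 3 processed pseudogenes, each alike over 240 bases. Foxm1, a transcription factor of late cell cycle genes, was at 14.65, 13.95 and 15.35 FPKM in HCD and 13.9, 14.4 and 12.6 FPKM in ND. Among the phosphatases that activate Cdk1, Cdc25b was at 10.3, 10.9 and 11.7 FPKM in HCD and 11.6, 10.3 and 8.70 FPKM in ND, while Cdc25c was at 9.37, 5.85 and 8.60 FPKM in HCD and 7.23, 7.56 and 6.94 FPKM in ND. They ran differently between the HCD libraries, since HCD 2 was the lowest of all for Cdc25c but not for Cdc25b. The ratio of Cdc25b to Cdc25c was 1.10, 1.86 and 1.36 in HCD 1 to HCD 3 and 1.60, 1.37 and 1.253 in ND 1 to ND 3. Ccna2, cyclin A2, and Cdca3, a protein of cell division, differed by 0.19 and 0.14.

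Of the mitotic kinases, Aurka was the member with the lowest p. Aurka, the centrosomal Aurora kinase (chromosome 2, 172356190 to 172370535, minus strand), was at 19.14, 16.19 and 19.08 FPKM in HCD 1 to HCD 3, against 15.54, 16.15 and 14.64 FPKM in ND 1 to ND 3. The groups did not overlap, though HCD 2 and ND 2 nearly met. Its log2 difference was 0.22 (SE 0.081, 95% interval 0.02 to 0.41) with an unadjusted limma p of 0.0364 and an adjusted p of 0.794. The Aurka difference kept its direction with each library left out, from 0.18 to 0.29. Plk1, the Polo kinase of spindle poles and kinetochores, was at 22.9, 17.7 and 21.3 FPKM in HCD and 20.3, 18.3 and 15.4 FPKM in ND, a log2 difference of 0.19 (SE 0.130). Plk1 was lowest in ND 3 and second lowest in HCD 2. Bub1, a checkpoint kinase of the kinetochore, was at 15.8, 14.4 and 16.8 FPKM in HCD and 16.5, 15.8 and 13.5 FPKM in ND, and differed by 0.04. Nek2, which separates centrosomes, and Ttk, the Mps1 checkpoint kinase, differed by 0.16 and 0.01.

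The chromosomal passenger complex corrects faulty attachments with its kinase Aurkb, carried by Incenp, Birc5 (survivin) and Cdca8 (borealin). Its 4 subunits had higher means in HCD, with differences of 0.08 to 0.14, and each was lowest in ND 3. Aurkb was at 11.7, 10.8 and 12.6 FPKM in HCD 1 to HCD 3, against 10.8, 11.2 and 9.71 FPKM in ND 1 to ND 3. Birc5 was at 14.4, 13.9 and 15.2 FPKM in HCD and 13.6, 14.5 and 11.4 FPKM in ND. HCD 2 lay below ND 2 for all 4 subunits, so the groups overlapped. Cdca8 was at 10.4, 9.30 and 10.8 FPKM in HCD and 9.33, 9.91 and 8.25 FPKM in ND, and Incenp was well above its partners at 46.6, 38.8 and 42.3 FPKM in HCD and 39.6, 43.9 and 37.1 FPKM in ND.

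Ratios inside the complex overlapped between the diets. Aurkb to Cdca8 was 1.15 ± 0.0297 in HCD and 1.16 ± 0.0217 in ND (SD, n = 3 each). Aurkb to Incenp was 0.276 ± 0.0243 in HCD and 0.264 ± 0.00917 in ND (SD, n = 3 each), and Birc5 to Incenp was 0.342 ± 0.0290 in HCD and 0.327 ± 0.0186 in ND. Aurka to Aurkb was 1.55 ± 0.0782 in HCD and 1.46 ± 0.0415 in ND (SD, n = 3 each), also with overlap. Cdca8 shares stretches of 112 to 115 bases at over 97% identity with several other genes, so its level is less sure.

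At the kinetochore, Ndc80 had the largest difference toward ND among the 48 genes. Ndc80 (chromosome 17) encodes the subunit that gives its name to the complex binding microtubule ends. It was at 16.1, 14.9 and 16.1 FPKM in HCD 1 to HCD 3, against 19.1, 19.1 and 15.5 FPKM in ND 1 to ND 3. ND 1 and ND 2 lay above every HCD library, and ND 3 lay among them. The log2 difference of Ndc80 was -0.17 (95% interval -0.40 to 0.05, limma adjusted p = 0.794) and -0.27 without ND 3. Its partners Nuf2 and Spc25 were at 9.38, 8.73 and 8.35 FPKM and at 4.55, 4.08 and 4.35 FPKM in HCD, against 8.48, 9.29 and 7.92 FPKM and 4.67, 4.42 and 4.02 FPKM in ND. Nuf2 and Spc25 differed by 0.04 and -0.01, and the diets overlapped for both.

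Set against Ndc80 within each library, its partners were higher in every HCD library than in any ND library. Nuf2 to Ndc80 was 0.582, 0.586 and 0.517 in HCD 1 to HCD 3, against 0.445, 0.485 and 0.511 in ND 1 to ND 3. Spc25 to Ndc80 was 0.282, 0.274 and 0.269 in HCD and 0.245, 0.231 and 0.259 in ND. Spc24 to Ndc80 was 0.348, 0.568 and 0.402 in HCD and 0.265, 0.304 and 0.306 in ND. These 3 ratios did not overlap between the diets, but they share Ndc80, the member with the lowest difference, as denominator and are not independent. Of 16 ratios computed, 5 had no overlap, these 3 and, by thin margins, Kif23 to Racgap1 and Ccnb2 to Cdk1. The margin was thin for Nuf2 to Ndc80 too, with HCD 3 at 0.517 and ND 3 at 0.511. Spc25 to Nuf2 overlapped (0.491 ± 0.0272 in HCD and 0.511 ± 0.0370 in ND, SD, n = 3 each). No share for ratios in general was computed. The smallest two-sided p of an exact permutation test is 0.1 with 3 libraries a diet, and these ratios were not tested. After centring on the median of the 48 genes, 6 members did not overlap between the diets (12.5%, against 11.1% of all tested genes on that scale): Ccna2 higher, and Ndc80, Cdca5, Spc25, Ttk and Top2a lower in HCD. That share is near the table's. Of the 1492 tested genes without overlap on that scale, 1414 were lower in HCD. These were 10.5% of all tested genes, against 10.4% of the members. Margins were thin for Ccna2, Spc25, Ttk and Top2a, where the nearest centred HCD and ND values were almost equal. Ndc80 had the largest centred difference of the 6, -0.27 on the log2 scale.

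Spc24, the other small subunit of the complex, ran apart from Spc25. Spc24 was at 5.61, 8.46 and 6.48 FPKM in HCD 1 to HCD 3, against 5.06, 5.82 and 4.74 FPKM in ND 1 to ND 3. HCD 2 was far above the rest, and HCD 1 lay below ND 2. Its log2 difference of 0.33 (SE 0.144, limma adjusted p = 0.794) was the largest of the 48 and was 0.18 at the lowest with a library left out. Spc24 rests on as few as 252 fragments, and it holds stretches of 140 to 151 bases at over 97% identity to transcripts of other genes, among them Malat1. Cenpa, the histone variant of centromeres, Cenpe, a kinetochore kinesin, and Cenpf, a large kinetochore protein, differed by 0.14, 0.11 and 0.10.

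**Figure D4:**
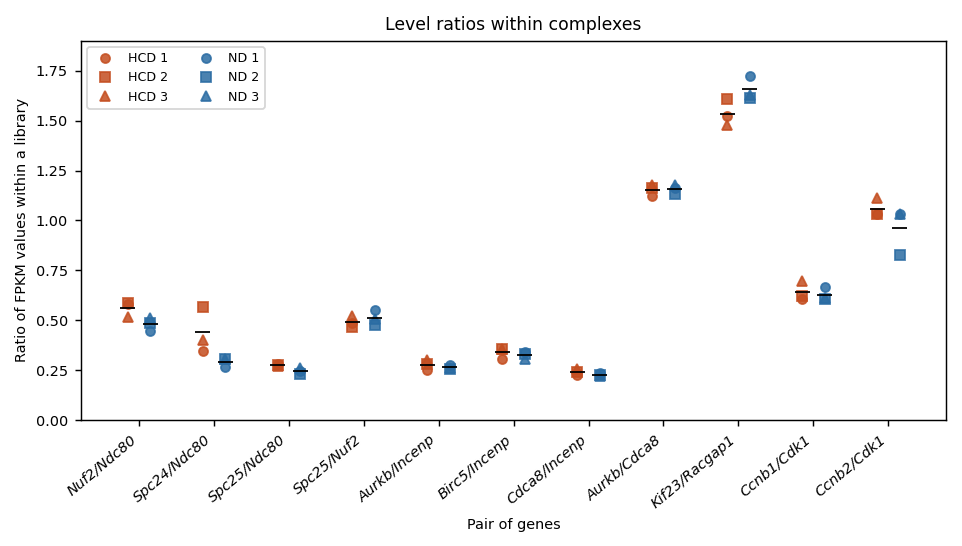
Ratio of FPKM values of gene pairs within each library, HCD left of ND in each pair, with a black line at the group mean. The 3 ratios over Ndc80, which share that denominator, do not overlap between the diets, nor do Kif23 to Racgap1 and Ccnb2 to Cdk1. Margins are thin for Nuf2 to Ndc80, Kif23 to Racgap1 and Ccnb2 to Cdk1. The ratios of passenger complex subunits overlap.

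Of the checkpoint and anaphase genes, Pttg1 and Mad2l1 had the largest within-group SDs of the 48 genes, 0.2892 and 0.2282 on the log2 scale. Cdc25c, an entry regulator, was next at 0.2278. Bub1b, Ube2c and Cdca5 lay below the median SD of 0.127. Bub1b, the checkpoint protein BubR1, was at 22.2, 19.8 and 20.9 FPKM in HCD 1 to HCD 3, against 19.9, 20.3 and 17.4 FPKM in ND 1 to ND 3. The ratio of Bub1 to Bub1b was 0.747 ± 0.0479 in HCD and 0.794 ± 0.0307 in ND (SD, n = 3 each), with overlap. Ube2c, the ubiquitin-conjugating enzyme of the APC/C, was the most abundant of these genes at 43.5, 36.6 and 38.2 FPKM in HCD and 39.1, 37.2 and 33.2 FPKM in ND. ND 3 was again lowest for both genes. Cdca5, sororin, which protects cohesion between sister chromatids, was 1 of the 3 members with the lower mean in HCD, at 11.6, 9.74 and 10.2 FPKM, against 12.4, 11.8 and 10.3 FPKM in ND, with a log2 difference of -0.12 (SE 0.093).

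The APC/C activator Cdc20, its target securin and its inhibitor MAD2 ran alike in the HCD libraries and differently in the ND libraries. Among HCD libraries each was highest in HCD 1 and lowest in HCD 2. Cdc20 was at 41.3, 32.4 and 36.9 FPKM in HCD 1 to HCD 3, against 33.3, 34.6 and 28.1 FPKM in ND 1 to ND 3. Pttg1, securin, was at 13.5, 7.79 and 9.96 FPKM in HCD and 11.7, 9.01 and 9.20 FPKM in ND. Pttg1 was highest in HCD 1 and lowest in HCD 2, with ND libraries between, and differed by 0.03 (95% interval -0.44 to 0.51). Its within-group SD of 0.289 on the log2 scale was the largest of the 48 genes. Mad2l1, the checkpoint protein MAD2, was at 10.9, 8.71 and 10.2 FPKM in HCD and 11.4, 9.85 and 7.39 FPKM in ND. Cdc20, Pttg1 and Mad2l1 were described in full after their values were seen.

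The 7 kinesins had the lowest median log2 difference of the role groups, 0.07 (range 0.03 to 0.15), and each was lowest in ND 3. Kif11, the Eg5 motor that pushes spindle poles apart, was at 48.1, 42.5 and 47.2 FPKM in HCD 1 to HCD 3, against 45.8, 48.9 and 36.2 FPKM in ND 1 to ND 3. ND 2 was the highest library and ND 3 the lowest, so the ND group enclosed the HCD group. Without ND 3 the Kif11 difference of 0.08 was -0.05, and 2 of 7 kinesins had a higher mean in HCD. Kif23 and Racgap1 form centralspindlin, which gathers at the midzone before cytokinesis. Kif23 was at 30.3, 27.6 and 29.4 FPKM in HCD and 30.7, 29.8 and 24.9 FPKM in ND, and Racgap1 was at 19.9, 17.2 and 19.9 FPKM in HCD and 17.8, 18.5 and 15.3 FPKM in ND. Their ratio was 1.53 ± 0.0656 in HCD and 1.66 ± 0.0591 in ND (SD, n = 3 each), without overlap but with HCD 2 and ND 2 nearly equal at 1.61 and 1.62. Reads of Racgap1 may be shared with a processed pseudogene alike over 488 bases at 98.2% identity, so the ratio is less sure. Kif20a, which moves the passenger complex to the midzone, Kif4, a chromosome-bound motor, Kif15, a partner of Kif11, and the microtubule depolymerase Kif2c differed by 0.15, 0.07, 0.07 and 0.06, and Kif18b by 0.05.

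Spindle assembly and cytokinesis genes all had higher means in HCD, and 7 of 8 did so without ND 3. Prc1, which bundles midzone microtubules (chromosome 7, 80294450 to 80316259, plus strand), was at 7.32, 7.46 and 7.46 FPKM in HCD 1 to HCD 3, against 6.63, 6.91 and 5.81 FPKM in ND 1 to ND 3. HCD libraries were nearly equal and lay above every ND library. The log2 difference of Prc1 was 0.18 (SE 0.072) with an unadjusted limma p of 0.0477 and an adjusted p of 0.794, and ranged from 0.11 to 0.22 with a library left out. Exons of Rccd1, on the opposite strand, cover 11.1% of the Prc1 exons, and Rccd1 averaged 0.344 FPKM. Anln, the contractile ring protein anillin, was at 24.8, 27.96 and 26.8 FPKM in HCD and 24.5, 26.7 and 22.5 FPKM in ND. Anln and Ect2, the activator of the cytokinetic GTPase RhoA, were highest in HCD 2, where most members were low. Tpx2, an activator of Aurka, Nusap1 and Hmmr, microtubule binders of the spindle, and Dlgap5, which steadies kinetochore fibres, differed by 0.10, 0.19, 0.13 and 0.03, and Ect2 by 0.11.

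**Figure D5:**
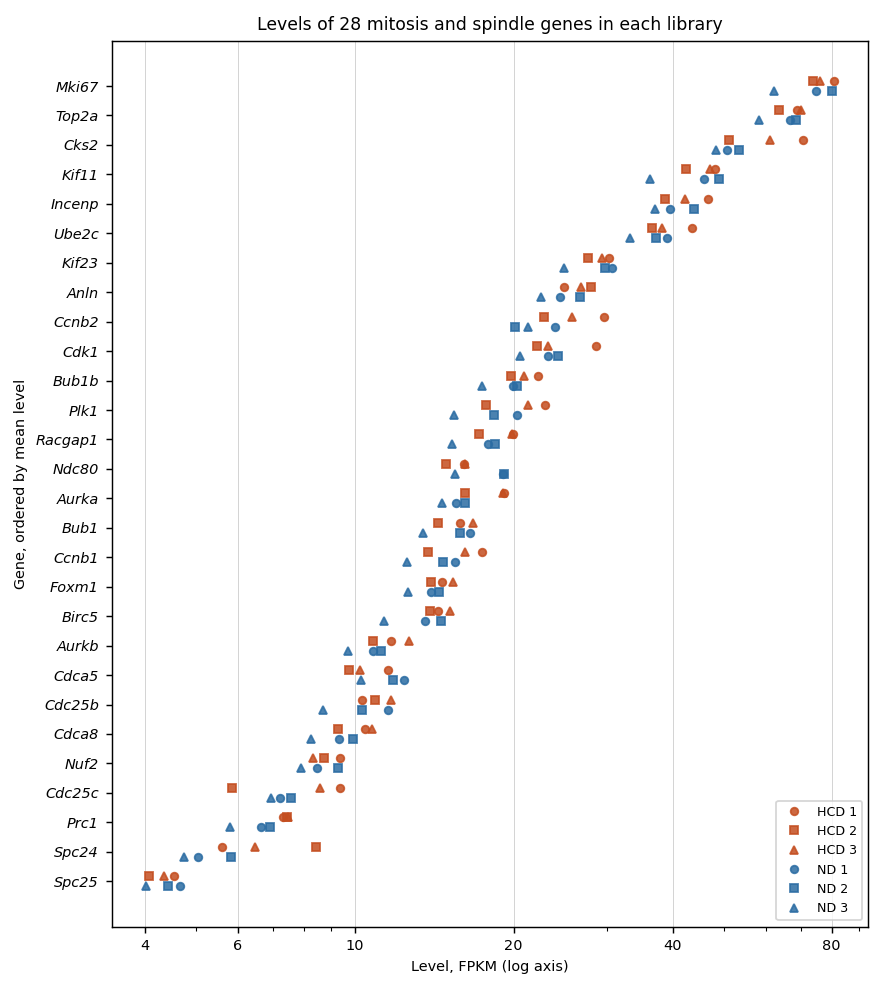
Level in FPKM, on a log axis, of 28 mitosis and spindle genes in each library, ordered by mean level, with HCD points above ND points for each gene. The ND 3 triangle is the leftmost blue point for most genes, Aurka and Prc1 have no overlap between orange and blue, and Ndc80 has ND 1 and ND 2 right of all HCD points.

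The sources used here do not say whether fragments were counted by strand, so a gene and its antisense partner cannot be told apart. Of the 48 genes, 14 share exon bases with another annotated gene, 12 of them with a gene on the opposite strand. The largest shares were in Kif20a, where Cdc23 covers 29.3% of the exon bases and averaged 5.40 FPKM, and in Ube2c, where Tnnc2 covers 22.8% and averaged 0.0364 FPKM. Opposite-strand partners above 3 FPKM were also found for Kif4, Ccna2, Nusap1 and Cdc20, and the values of these genes are less sure for it.

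Related gene groups had median log2 differences of 0 to 0.05, against 0.02 over all tested genes. None of their genes passed the test in either direction. Of 28 replication and G1/S genes, 19 had the higher mean in HCD with a median log2 difference of 0.03, and 15, or 53.6%, were lowest in ND 3. Pcna, the sliding clamp, was the highest of them at 60.5 ± 2.28 FPKM in HCD and 58.3 ± 6.43 FPKM in ND (SD, n = 3 each). Gins3, of the replicative helicase, had their lowest p, with 5.25 ± 0.407 FPKM in HCD and 3.83 ± 0.461 FPKM in ND and a log2 difference of 0.37 (limma adjusted p = 0.794). Condensin, cohesin and separase genes had 11 of 19 means higher with a median of 0, and 13 of them, or 68.4%, were lowest in ND 3. Rad21, a cohesin subunit, and Smc4, a condensin subunit, differed by -0.01 and 0.15. With ND 3 left out, 10 replication and G1/S genes had the higher mean in HCD, with a median of -0.03. For condensin, cohesin and separase it was 4 genes, with a median of -0.02.

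Other centromere and kinetochore genes had 15 of 29 means higher, with a median of 0.01. Zwint, a checkpoint partner of the kinetochore, was at 38.6 ± 1.70 FPKM in HCD and 42.6 ± 1.01 FPKM in ND (SD, n = 3 each), a log2 difference of -0.14, and Mis12 differed by 0.17. Zwint was highest in ND 3, at 43.6 FPKM. Genes of the APC/C had 8 of 16 tested means higher, with Cdc16 and Anapc10 at -0.04 and 0.18. Other spindle and centrosome genes had 16 of 25 tested means higher, with Ckap2 and Stil at 0.11 and -0.17. In these lists 41.4%, 25% and 60% of the tested genes were lowest in ND 3. With ND 3 left out, 13, 7 and 11 of their genes had the higher mean in HCD.

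The brakes and the transcriptional regulators of mitosis gave no call either. CDK inhibitors and entry brakes had 6 of 11 tested means higher, and Cdkn1c was below the filter. Cdkn1a, the p53-induced inhibitor p21, was at 35.1, 44.4 and 50.1 FPKM in HCD 1 to HCD 3, against 49.2, 45.9 and 45.4 FPKM in ND 1 to ND 3. HCD 1, with the highest summed mitosis level at 1005 FPKM, had the lowest Cdkn1a, but HCD 3, at 957 FPKM, had the highest. ND 3, with the lowest summed mitosis level at 777 FPKM, lay between them in Cdkn1a. A relation was not tested. Cdkn2b, the inhibitor p15, was at 29.2 ± 6.602 FPKM in HCD and 36.4 ± 0.552 FPKM in ND (SD, n = 3 each), a log2 difference of -0.33 (limma adjusted p = 0.794). DREAM, MuvB, B-Myb and NF-Y genes had 14 of 19 means higher, with a median of 0.05. With ND 3 left out, 13 of this list and 3 of the brakes had the higher mean in HCD. Tfdp1, a partner of E2F factors, differed by 0.07, and E2f8, a repressor of the E2F programme, was at 5.41 ± 0.0222 FPKM in HCD and 6.91 ± 1.04 FPKM in ND (SD, n = 3 each), a log2 difference of -0.29. E2f8 was highest in ND 3, at 7.85 FPKM.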

How the data were processed

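RNA of 6 tumour samples was sequenced from paired-end TruSeq libraries, per the labels' protocols. Per the file headers, the authors deposited FPKM, with a column for each of the samples. Build mm10 and the tools edgeR, HTSeq, TopHat2 2.0.9 and CASAVA 1.8 appear in the submitters' processing notes, with no roles. The annotation release was not given. FPKM are not counts, so limma 3.58.1 (R 4.3.3) was fitted to log2(FPKM + 1) with diet as the only term, a variance trend, two-sided tests and Benjamini-Hochberg adjustment over the 13417 genes whose mean reached 0.5 FPKM. Differences are HCD minus ND on that scale, which understates changes of low genes.

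Members and lists were chosen with earlier results of these data known. Values in every library are given for members without overlap between groups, the 3 lowest p in each direction, the highest of each role, 8 standard markers and the genes of the ratios; of other lists, the highest mean and the lowest p are named. Markers of other lists are given as sums.

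Library sizes were found as the number that made low values whole fragments (within 0.03) with GENCODE M21 exon lengths; 51.8% to 54.7% of values under 15 fragments came out whole, so fragments per gene are approximate. Positions are 1-based, GRCm38, which mm10 denotes. Stretches alike in other genes (at least 100 bases, 97% identity) were found with BLAST 2.17.0 on M21 transcripts. Promoter windows came from RefSeq; in 37 of 41 the last bases lay near a transcript's start.

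Alternatives were a pseudocount of 0.1, no filter, 2 scalings, no variance trend, a block for the replicate number, and libraries left out.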

Additional observations from a re-analysis of the deposited data

How the results depend on the processing

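Under 13 alternatives, 0 members passed an adjusted p of 0.05, and the lowest adjusted p of a named member was 0.546. Of 364 values of the 28 named members, 353 kept their direction and 11 turned, all with 1 library left out. Leaving out each library in turn, the differences spanned -0.05 to 0.09 for Bub1, -0.02 to 0.27 for Cdc25c, -0.05 to 0.17 for Kif11, -0.06 to 0.09 for Kif23, -0.01 to 0.17 for Mki67, -0.0099 to 0.09 for Nuf2, -0.06 to 0.03 for Spc25 and -0.0053 to 0.11 for Top2a. The same omissions gave 32 to 46 members with a higher HCD mean, a median difference of 0.04 to 0.16, 0 to 5 members at an unadjusted p under 0.05, 2 to 22 members without overlap (22 without HCD 2, where 25% of all tested genes did not overlap) and 0 to 1 genes called over the table, the 1 without ND 2. Without ND 3, 5 members did not overlap, against 19.4% of all tested genes, and without ND 2, 10 did not, against 28.4%. Fewer libraries by themselves raise the share without overlap. Shares of all tested genes at an unadjusted p under 0.05 are not given for the alternatives, so those member counts have no background. Without ND 2 and HCD 1 together, 11 members did not overlap, against 39.6% of all tested genes. Median-ratio and upper-quartile scaling left 0 and 0 members at an unadjusted p under 0.05, no variance trend left 1, and upper-quartile scaling left 1 without overlap; the cause was not tested. With upper-quartile scaling the median difference was 0.08, against -0.008 over all tested genes. The labels do not say whether the replicate numbers pair the samples. Same-numbered libraries correlated at -0.19, 0.142 and 0.0588 in their deviations from the group means. With 3 libraries a diet these values cannot decide whether samples were paired. With the replicate block, 0 members passed and 2 were at an unadjusted p under 0.05, as without it. With 3 libraries a diet the median half-width of a member's 95% interval was 0.23.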
